A study of Macaca fascicularis with 34 samples.

Results

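Transcripts of 9 genes that drive or restrain passage through the G1 phase of the cell cycle were examined in 34 single cells of cynomolgus monkeys (Macaca fascicularis, subspecies fascicularis). The genes are the D-type cyclins CCND1, CCND2 and CCND3, cyclin E1 (CCNE1), the kinases CDK4, CDK6 and CDK2, the kinase inhibitor CDKN1B (p27) and the retinoblastoma gene RB1. They were chosen by their human symbol, and all 9 were found among the 28551 genes of the table. CDKN1B is the 1 inhibitor of kinases among them, since RB1 codes for a substrate of the kinases. The table lists CCND1 on chromosome 14, CCND2, CDK2, CDK4 and CDKN1B on chromosome 11, CCND3 on chromosome 4, CCNE1 on chromosome 19, CDK6 on chromosome 3 and RB1 on chromosome 17. CCND3 and CDK4 carry the macaque names LOC101865999 and LOC101925733 there and are paired with the human symbols by the table itself.

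Amplified cDNA of each cell was read at the 3′ ends of transcripts (SC3-seq), so levels are given as RPM, read numbers scaled to the library total, and are not compared between genes. The gonad group held 9 cells of male gonads, 6 from embryonic day (E) 36, 1 from E47 and 2 from E55. The embryo cells, 25 in all, came from E13, E14, E16, E17 and E20, and were divided by the pluripotency gene NANOG. At 400 RPM of NANOG or more, 18 cells were taken as germ-cell-like embryo cells, with 3 from E13, 1 from E14, 10 from E16 and 2 each from E17 and E20. Below that level, 7 cells were taken as other embryo cells, 6 from E20 and 1 from E16. The labels name no treatment, no genotype, no cell type and no animal, and do not say how cells were picked. Each group therefore counted as 1 sample, no test was possible, and each ± is the SD over cells.

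The D-type cyclins bind CDK4 and CDK6, and the complexes phosphorylate RB1, which releases the E2F transcription factors that switch on genes for DNA replication. Cyclin E1 with CDK2 completes that phosphorylation and starts S phase, and CDKN1B binds and holds back the cyclin E and cyclin A complexes of CDK2. Primordial germ cells, the embryonic founders of eggs and sperm, arise early and divide while they migrate to the gonad. In the mouse, CCND2 and CCND3 are known from germ cells of the gonad, and CCND1 is widely used by somatic tissues of the embryo.

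The NANOG level of the cells just inside the threshold was 534 RPM (E20 cell 5), 566 RPM (E20 cell 8) and 576 RPM (E17 cell 2). The cells just outside were E16 cell 8 at 222 RPM and E20 cell 4 at 124 RPM. A rule of 100 RPM or more for both SOX17 and TFAP2C, the germ cell regulators, placed 25 of the 25 embryo cells alike. Of 10 germ cell markers, 9 had a median of 15 RPM or more in gonad cells, 9 in germ-cell-like embryo cells and 3 in other embryo cells. Of 8 mesoderm markers, 1 did so in gonad cells, 3 in germ-cell-like embryo cells and 8 in other embryo cells. Their summed level ran from 46.1 to 431 RPM in gonad cells, from 72.9 to 8634 RPM in germ-cell-like embryo cells and from 1427 to 14956 RPM in other embryo cells. The germ-cell-like cell at 8634 RPM was E20 cell 5, and E17 cell 2 had the highest summed level of 5 endoderm markers in its group, 1328 RPM. Both cells thus stand apart from their group. DAZL and DDX4, which mark germ cells of the gonad, both had a median of 15 RPM or more in gonad cells, and neither did in the embryo groups. WT1, a marker of gonadal somatic cells, was read in 3 gonad cells, at 141 RPM in E36 cell 5, 57.2 RPM in E55 cell 2 and 21.8 RPM in the E47 cell, and had 0 reads in the other 6. The 9 gonadal somatic markers together reached 20262 RPM in the E47 cell. E36 cell 1, with 0 WT1 reads, had 4 of them at 15 RPM or more and a sum of 477 RPM, above the 387 RPM of E55 cell 2, so a split by WT1 does not separate all somatic transcripts. WT1, INSL3 and AMH had 0 reads in every germ-cell-like embryo cell.

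The depth recovered from the values was 809114 to 2945022 reads in gonad cells, 472188 to 3556592 in germ-cell-like embryo cells and 1072324 to 2234887 in other embryo cells. Groups also differ in stage and in a code in the sample labels, whose meaning is not stated. All gonad cells and both E17 cells carry MS11, E16 cells and E20 cell 8 carry MS09, the other E20 cells MS08, E13 cells MS10 and the E14 cell MS13. Group, stage and code therefore cannot be told apart beyond the few cells that share a code.

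A gene was counted as higher or lower where the mean log2(RPM + 1) of 2 groups differed by at least 1, and as measured where it averaged 5 RPM or more over the 34 cells, as 11081 genes did. All 9 genes were measured, and CCND1 passed this filter through the other embryo cells alone, since its mean was below 5 RPM in gonad and in germ-cell-like embryo cells. In germ-cell-like against other embryo cells, CDKN1B was higher and CCND1, CDK6, CCNE1, CCND2 and CDK2 were lower, so 1 of the 9 was higher and 5 were lower. Over all measured genes, 15.7% were higher and 25% were lower in that comparison. Without E17 cell 2 and E20 cell 5 the same 6 genes passed in the same directions. The median difference of the 9 was -1.04, against -0.14 for all measured genes. In gonad against germ-cell-like embryo cells, CCND2 and CDK6 were higher and CDK2 was lower, beside 10.2% of measured genes that were higher and 17.4% that were lower. Without the 3 gonad cells with WT1 reads, CCND2 was higher and CCND1, CDK2 and CDK4 were lower, and the median of all measured genes was -0.36. The CCND1 call there compares means of 0.21 and 4.05 RPM, both below 5 RPM. Shares of all measured genes higher or lower were not computed in this setting or without E17 cell 2 and E20 cell 5. With all 9 cells the median of the 9 genes was 0.58 and that of all measured genes -0.12. Both comparisons use the same germ-cell-like cells, so they are not independent. With all cells, none of the 9 genes separated the groups fully in either comparison. Among measured genes, gonad cells lay all above the germ-cell-like embryo cells in 0.00902% and all below them in 0%, and germ-cell-like cells lay all above the other embryo cells in 0.135% and all below them in 0.217%.

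**Figure D1:**
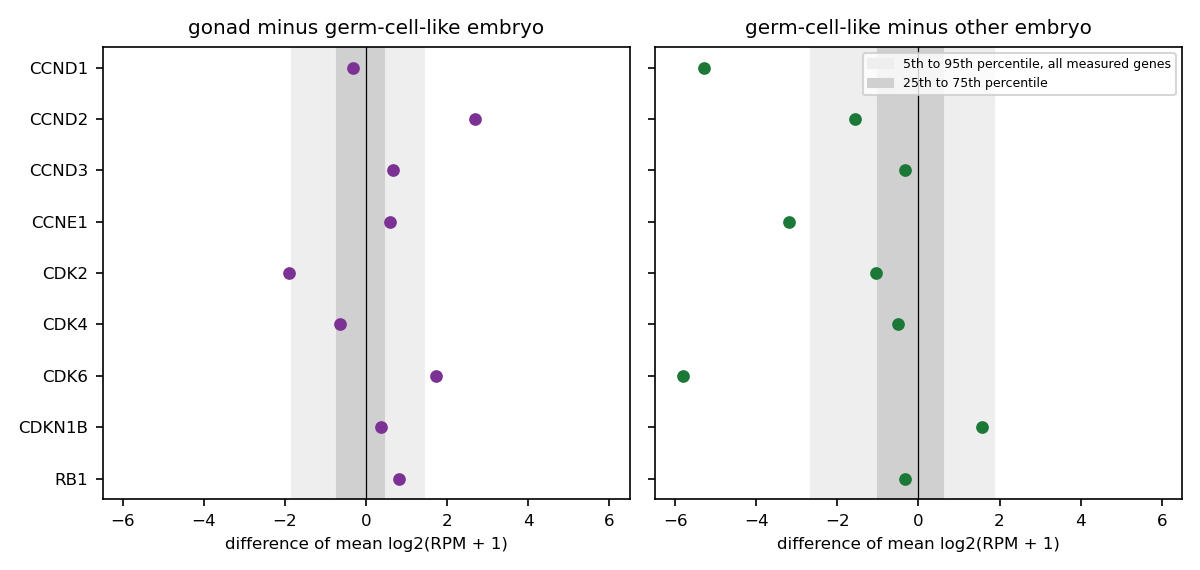
Difference in mean log2(RPM + 1) for each of the 9 genes, gonad minus germ-cell-like embryo cells (left) and germ-cell-like minus other embryo cells (right); the light band spans the 5th to 95th percentile of all measured genes and the dark band the 25th to 75th. CDK6 at -5.80 and CCND1 at -5.29 lie farthest from 0 in the right panel, and CCND2 at 2.69 in the left.

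CCND1, the D-type cyclin best known as a target of growth factor signals, was low in most gonad and germ-cell-like embryo cells and higher in the other embryo cells. Its lowest, median and highest levels were 0, 0 and 23.6 RPM in gonad cells, 0, 0.68 and 23.9 RPM in germ-cell-like embryo cells, and 20.1, 104 and 312 RPM in other embryo cells. Every other embryo cell lay above 17 of the 18 germ-cell-like cells, and the exception was E17 cell 2. The mean was 4.05 ± 6.74 RPM in germ-cell-like embryo cells and 139 ± 106 RPM in other embryo cells, a 34.4-fold difference in means and -5.29 in mean log2(RPM + 1). That difference ranked 32 from the lowest of the 11081 measured genes. The filter favours such a rank, since CCND1 passed it through the other embryo cells alone. Summed over cells, the level was 4.39 RPM in germ-cell-like embryo cells (exact 95% Poisson interval 3.75 to 5.10, counting error only) and 132 RPM in other embryo cells (125 to 139).

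Within E16, the 10 germ-cell-like cells had CCND1 at 0 to 7.61 RPM, and the 1 other cell, E16 cell 8, had 20.1 RPM. Within E20, the 2 germ-cell-like cells had 15.2 RPM (cell 5) and 12.9 RPM (cell 8), and the 6 other cells had 60.9, 64.3, 104, 177, 237 and 312 RPM. In both stages the germ-cell-like cells thus lay below the other cells in CCND1, with higher levels on both sides at E20 than at E16. This rests on 1 other cell at E16 and on 2 germ-cell-like cells at E20. The share of all measured genes that separate in this way within a stage was not computed. Without E17 cell 2 and E20 cell 5, the highest germ-cell-like value was 12.9 RPM and the fold in means was 66.1. All 8 mesoderm markers were at a median of 15 RPM or more in the other embryo cells, with a median summed level of 217 RPM in germ-cell-like and 5504 RPM in other embryo cells. Their part in the CCND1 result was not tested.

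Gonad cells did not differ from germ-cell-like embryo cells in CCND1 by the fold used, with 3.92 ± 8.08 RPM in gonad cells, 4.05 ± 6.74 RPM in germ-cell-like embryo cells and a difference of -0.32. Of the 9 gonad cells, 5 had 0 CCND1 reads. The higher values were in cells with WT1 reads, 23.6 RPM in the E47 cell and 10.1 RPM in E55 cell 2, while E36 cell 5 had 0.34 RPM. The other 6 gonad cells held 1 CCND1 read together, or 0.10 RPM, with an exact Poisson interval up to 0.57 RPM.

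CCND2 was the D-type cyclin that stood out in the gonad. The 9 gonad cells had 95.6 to 542 RPM with a median of 437 RPM, the germ-cell-like embryo cells had 0 to 339.8 RPM with a median of 85.5 RPM, and the other embryo cells had 113 to 263 RPM with a median of 173 RPM. All 9 gonad cells lay above the median of the germ-cell-like embryo cells, 6 of them lay above every such cell, and 11 of the 18 germ-cell-like cells lay below every gonad cell. The means were 394 ± 144 RPM in gonad cells and 124 ± 107 RPM in germ-cell-like embryo cells, which is 3.16-fold in means and 2.69 in mean log2(RPM + 1), ranked 78 from the highest of 11081 genes.

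The 6 E36 cells were close together, at 421, 437, 453, 478, 530.2 and 542 RPM. The E47 cell had 325 RPM, and the E55 cells had 261 and 95.6 RPM, so the later gonad cells were lower than all E36 cells. E55 cell 2, the lowest, holds WT1 reads. Without the 3 cells with WT1 reads the difference from germ-cell-like embryo cells was 2.98, and against the E17 cells, which share the label code of the gonad cells, it was 1.62.

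Among germ-cell-like embryo cells CCND2 spread from none to gonadal levels. It had 0 reads in E13 cell 1, E13 cell 3 and E16 cell 6, 56.7 RPM in E13 cell 2, and 339.8 RPM in the E14 cell. E16 cell 10 had 326 RPM, E16 cell 7 had 253 RPM and E17 cell 1 had 227 RPM. The difference from other embryo cells was -1.56 in mean log2(RPM + 1), while the means, 124 ± 107 RPM in germ-cell-like and 170.0 ± 52.9 RPM in other embryo cells, differed 1.37-fold. It was short of the threshold among E20 cells, at -0.97, and within the label codes, at -0.63 for MS08 and -0.51 for MS09.

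CCND3 varied more among cells of a group than between groups. It averaged 49.2 ± 77.0 RPM in gonad cells, 18.2 ± 18.8 RPM in germ-cell-like embryo cells and 18.9 ± 16.1 RPM in other embryo cells. The difference was 0.66 for gonad against germ-cell-like cells and -0.33 for germ-cell-like against other embryo cells. The gonad mean rests on the E47 cell at 242 RPM, and without it the fold over germ-cell-like cells was 1.38 in place of 2.70. The difference of 0.66 was 1.05 without E36 cell 1 and 1.15 without E55 cell 1, and it turned to -0.61 without the 3 cells with WT1 reads and to -1.65 against the E17 cells of the same label code.

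The balance of CCND1 to CCND2 within a cell also differed between the groups. The mean log2 ratio of (CCND1 RPM + 1) to (CCND2 RPM + 1) was -7.41 ± 2.30 in gonad cells, -4.40 ± 2.79 in germ-cell-like embryo cells and -0.68 ± 1.295 in other embryo cells. No gonad cell, 1 germ-cell-like cell and 3 of the 7 other embryo cells had more CCND1 than CCND2 reads. A D-type cyclin of any kind was at 15 RPM or more in 9 of 9 gonad cells, 16 of 18 germ-cell-like embryo cells and 7 of 7 other embryo cells.

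**Figure D2:**
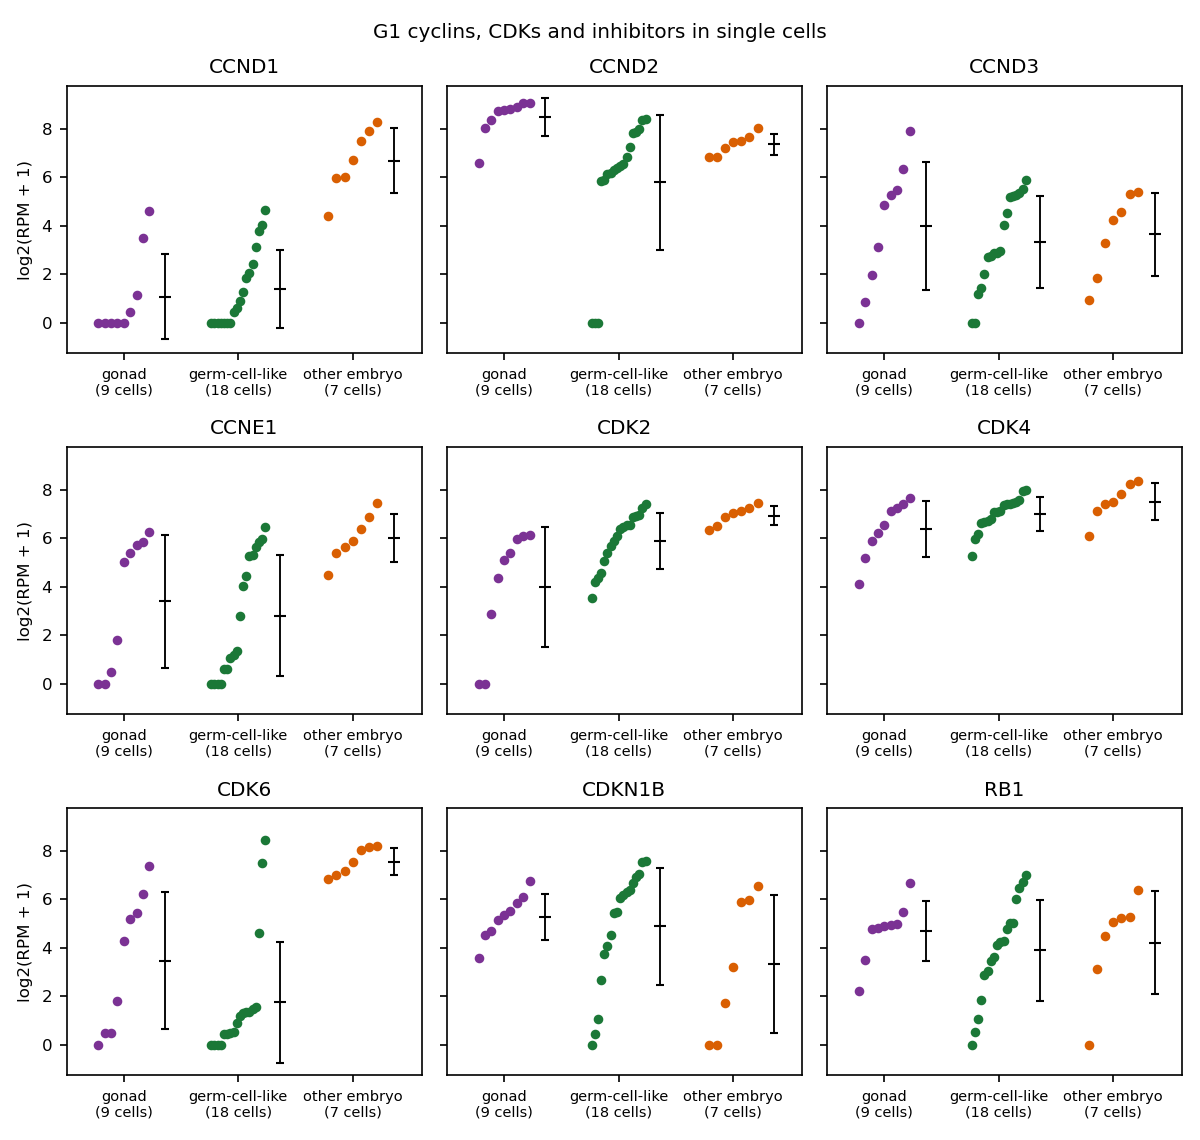
Level of each gene in log2(RPM + 1), 1 point per cell, sorted from low to high within each group of 9 gonad, 18 germ-cell-like embryo and 7 other embryo cells; black bars give mean ± SD over cells. CCND1 and CDK6 are low in most germ-cell-like cells and high in the other embryo cells, CCND2 is highest in gonad cells, and CDK4 is at 15 RPM or more in all 34 cells.

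CDK6, a partner of the D-type cyclins known from the growth of blood cells, was at or near 0 in most germ-cell-like embryo cells. Its lowest, median and highest levels were 0, 18.4 and 166 RPM in gonad cells, 0, 1.06 and 348 RPM in germ-cell-like embryo cells, and 113, 185 and 289 RPM in other embryo cells. In 15 of the 18 germ-cell-like cells CDK6 was below 2 RPM. The exceptions were E13 cell 1 at 23.3 RPM, E17 cell 2 at 181 RPM and E20 cell 5 at 348 RPM. E20 cell 5 was therefore higher than every other embryo cell. The difference of germ-cell-like from other embryo cells, -5.80, ranked 17 from the lowest of 11081 genes.

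The means of CDK6 were 31.3 ± 89.7 RPM in germ-cell-like embryo cells and 199.8 ± 76.2 RPM in other embryo cells, or 6.38-fold lower in germ-cell-like cells. Without E20 cell 5 the fold was 15.7, and without E17 cell 2 as well it was 90.8. The 10 germ-cell-like cells of E16 had 0 to 1.90 RPM, against 113 RPM in E16 cell 8. Among E20 cells, germ-cell-like cell 8 had 1.48 RPM and cell 5 had 348 RPM, against 126 to 289 RPM in the 6 others. The 2 cells high in CDK6 had the highest PDGFRA of their group, 40.4 RPM in E20 cell 5 and 24.3 RPM in E17 cell 2. PDGFRA is only a part of the mesoderm list. Summed over that list E20 cell 5 had 8634 RPM, but E17 cell 2 had 250 RPM, near the group median of 217 RPM. E17 cell 1 and the E14 cell had higher sums, 389 and 1095 RPM, with CDK6 at 0.37 and 0 RPM. E20 cell 5 and E17 cell 2 had 7 and 8 of the 10 germ cell markers at 15 RPM or more.

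In the gonad CDK6 was highest in the 3 cells with WT1 reads. They had 73.3 RPM (E36 cell 5), 166 RPM (E47) and 42.0 RPM (E55 cell 2). The other 6 had 0, 0.38, 0.40, 2.47, 18.4 and 35.7 RPM, all below those 3. E36 cell 1, with the summed somatic markers of 477 RPM, was among these 6 and had 0.40 RPM of CDK6. The difference of gonad from germ-cell-like embryo cells was 1.72 with all cells, 2.50 without E17 cell 2 and E20 cell 5, 0.29 without the 3 gonad cells and -0.51 against the E17 cells with the same label code. The part of the somatic transcripts in the CDK6 reads was not tested.

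CCND1 and CDK6 were both at 15 RPM or more in 1 of 9 gonad cells, in 2 of 18 germ-cell-like embryo cells and in 7 of 7 other embryo cells. Neither reached that level in 4 gonad cells and 15 germ-cell-like embryo cells. Without E17 cell 2 and E20 cell 5, CCND1 and CDK6 were lower in every germ-cell-like embryo cell than in every other embryo cell, so 2 of the 9 genes did not overlap. Among measured genes, 0.641% were lower and 0.244% were higher in this way. However, E17 cell 2 and E20 cell 5 had the highest CCND1 and CDK6 of their group and were left out after seeing the data. The lack of overlap in these genes follows at least in part from that choice, so the shares are no fair comparison.

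**Figure D3:**
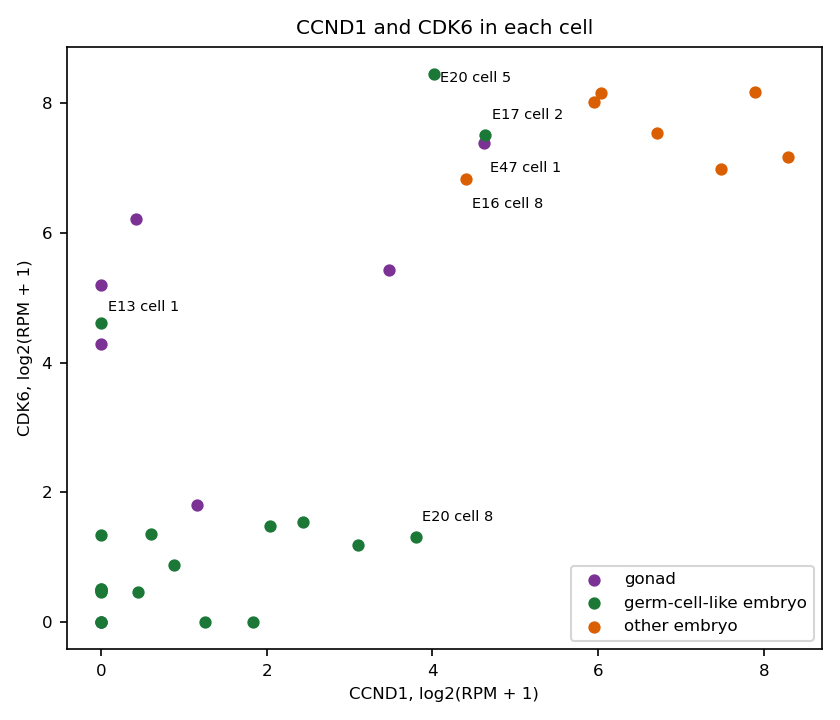
CDK6 against CCND1 in log2(RPM + 1), 1 point per cell, coloured by group. The 7 other embryo cells are at the top right, E17 cell 2, E20 cell 5 and the E47 gonad cell join them near CCND1 of 4 to 5, and most germ-cell-like cells are at the bottom left.

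CDK4, the other partner of the D-type cyclins, was present in every cell. It averaged 104 ± 63.7 RPM in gonad cells, 141 ± 58.7 RPM in germ-cell-like embryo cells and 201 ± 91.0 RPM in other embryo cells. The differences were -0.63 for gonad against germ-cell-like cells and -0.50 for germ-cell-like against other embryo cells, and the groups overlapped. The lowest value of each group was 16.1 RPM in gonad cells, 37.7 RPM in germ-cell-like embryo cells and 68.1 RPM in other embryo cells. In the 6 gonad cells without WT1 reads the mean was 79.5 ± 65.2 RPM, and the difference from germ-cell-like embryo cells was -1.07. Germ-cell-like embryo cells thus held CDK4 reads in all 18 cells, and in 15 of them neither CCND1 nor CDK6 reached 15 RPM.

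The summed level of the cycling markers MKI67, TOP2A and CCNB1 had the same order of groups as the means of CDK4. Its median was 204 RPM in gonad cells, 411 RPM in germ-cell-like embryo cells and 681 RPM in other embryo cells, and all 3 markers had a median of 15 RPM or more in both embryo groups but 2 in gonad cells. The part of proliferation in the differences below was not tested.

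CCNE1, the cyclin that activates CDK2, was lower in germ-cell-like than in other embryo cells. Its lowest, median and highest levels were 0, 31.7 and 76.6 RPM in gonad cells, 0, 3.77 and 87.9 RPM in germ-cell-like embryo cells, and 21.1, 58.8 and 173 RPM in other embryo cells. The groups overlapped, and 8 of the 18 germ-cell-like cells had 15 RPM or more, against 7 of 7 other embryo cells. The means were 20.9 ± 27.3 RPM in germ-cell-like cells and 77.2 ± 52.1 RPM in other embryo cells, 3.69-fold lower, with a difference of -3.20. Of the germ-cell-like cells, the E14 cell had 49.4 RPM, E13 cells 1 and 2 had 38.1 and 37.4 RPM, and the 10 cells of E16 averaged 10.7 ± 19.1 RPM. Gonad cells averaged 29.0 ± 29.4 RPM, 0.58 above germ-cell-like embryo cells. That difference was 1.01 without E36 cell 6 and likewise without E55 cell 1, and it turned to -0.41 without the 3 cells with WT1 reads.

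CDK2 was lowest in the gonad. Its lowest, median and highest levels were 0, 33.8 and 69.3 RPM in gonad cells, 10.5, 75.03 and 171 RPM in germ-cell-like embryo cells, and 79.0, 129 and 177 RPM in other embryo cells. Of the 18 germ-cell-like embryo cells, 9 lay above every gonad cell, and E36 cells 3, 4 and 6 lay below every germ-cell-like embryo cell. The means were 33.1 ± 28.2 RPM in gonad cells and 75.5 ± 48.1 RPM in germ-cell-like embryo cells, 2.28-fold lower, with a difference of -1.91. In the 6 gonad cells without WT1 reads CDK2 averaged 21.1 ± 25.8 RPM and the difference was -2.82.

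Germ-cell-like embryo cells were lower than other embryo cells in CDK2 by -1.04, with means of 75.5 ± 48.1 RPM and 126 ± 34.3 RPM in that order. This difference is at the threshold, and it no longer reached it when any 1 of 7 cells was left out, at -0.90 without E17 cell 1. Among E20 cells it was -0.33.

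CDKN1B, which codes for the inhibitor p27, was the 1 gene of the 9 that was higher in germ-cell-like than in other embryo cells. Its lowest, median and highest levels were 10.8, 39.4 and 108 RPM in gonad cells, 0, 53.9 and 191 RPM in germ-cell-like embryo cells, and 0, 8.31 and 91.4 RPM in other embryo cells. The groups overlapped, with 13 of 18 germ-cell-like cells and 3 of 7 other embryo cells at 15 RPM or more. The means were 64.7 ± 61.0 RPM in germ-cell-like cells and 31.6 ± 37.7 RPM in other embryo cells, 2.05-fold, with a difference of 1.56. The difference was 1.01 without E20 cell 2, which had 0 reads. It turned to -0.11 among E20 cells and to -1.22 among cells with the label code MS09, and was 1.62 within MS08, where E20 cell 5 is the 1 germ-cell-like cell. The gonad cells were narrower in range, at 45.2 ± 29.3 RPM, and differed from germ-cell-like embryo cells by 0.38 in mean log2(RPM + 1), although their mean RPM was lower.

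RB1, whose protein holds back E2F until the kinases phosphorylate it, was at similar mean levels in all groups. It averaged 33.4 ± 28.0 RPM in gonad cells, 31.3 ± 38.2 RPM in germ-cell-like embryo cells and 31.1 ± 27.1 RPM in other embryo cells. The differences were 0.80 for gonad against germ-cell-like embryo cells and -0.32 for germ-cell-like against other embryo cells. The first was 1.11 without E36 cell 2 and the second -1.03 without E20 cell 2. The second turned to 1.01 among E20 cells and to 2.43 within MS08. The E17 cells were low, with 0 and 1.07 RPM, and E16 cell 2 had the highest value, 126 RPM.

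By stage, CCND2 averaged 18.9 ± 32.7 RPM at E13 (3 cells), 339.8 RPM at E14 (1 cell), 135 ± 96.6 RPM at E16 (11 cells), 143 ± 119 RPM at E17 (2 cells), 157 ± 60.5 RPM at E20 (8 cells), 477 ± 49.7 RPM at E36 (6 cells), 325 RPM at E47 (1 cell) and 178 ± 117 RPM at E55 (2 cells). E36 was thus highest, and E16, E17, E20 and E55 did not differ beyond their SD. CDK2 averaged 111 RPM at E13, 171 RPM at E14, 65.3 RPM at E16, 63.1 RPM at E17, 112 RPM at E20, 27.0 RPM at E36, 40.8 RPM at E47 and 47.7 RPM at E55. The 3 gonad stages were the lowest for CDK2, and their order among themselves lies within the spread of the 6 E36 cells, which ran from 0 to 69.3 RPM.

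CDK6 averaged 8.28 RPM at E13, 0 RPM at E14, 11.03 RPM at E16, 90.6 RPM at E17, 204 RPM at E20, 18.7 RPM at E36, 166 RPM at E47 and 30.2 RPM at E55. Over 100 RPM of CDK6 were found in 1 of 11 cells at E16, 1 of 2 at E17, 7 of 8 at E20 and in the E47 cell, and in 0 cells of the other stages. At E20, 6 of the 7 were other embryo cells. CCND1 averaged 0.86 RPM at E13, 0 RPM at E14, 3.49 RPM at E16, 11.97 RPM at E17, 123 RPM at E20, 0.26 RPM at E36, 23.6 RPM at E47 and 5.07 RPM at E55. CDK4 stayed between 90.1 RPM, at E36, and 191 RPM, at E20, and RB1 between 0.54 RPM, at E17, and 46.3 RPM, at E13.

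**Figure D4:**
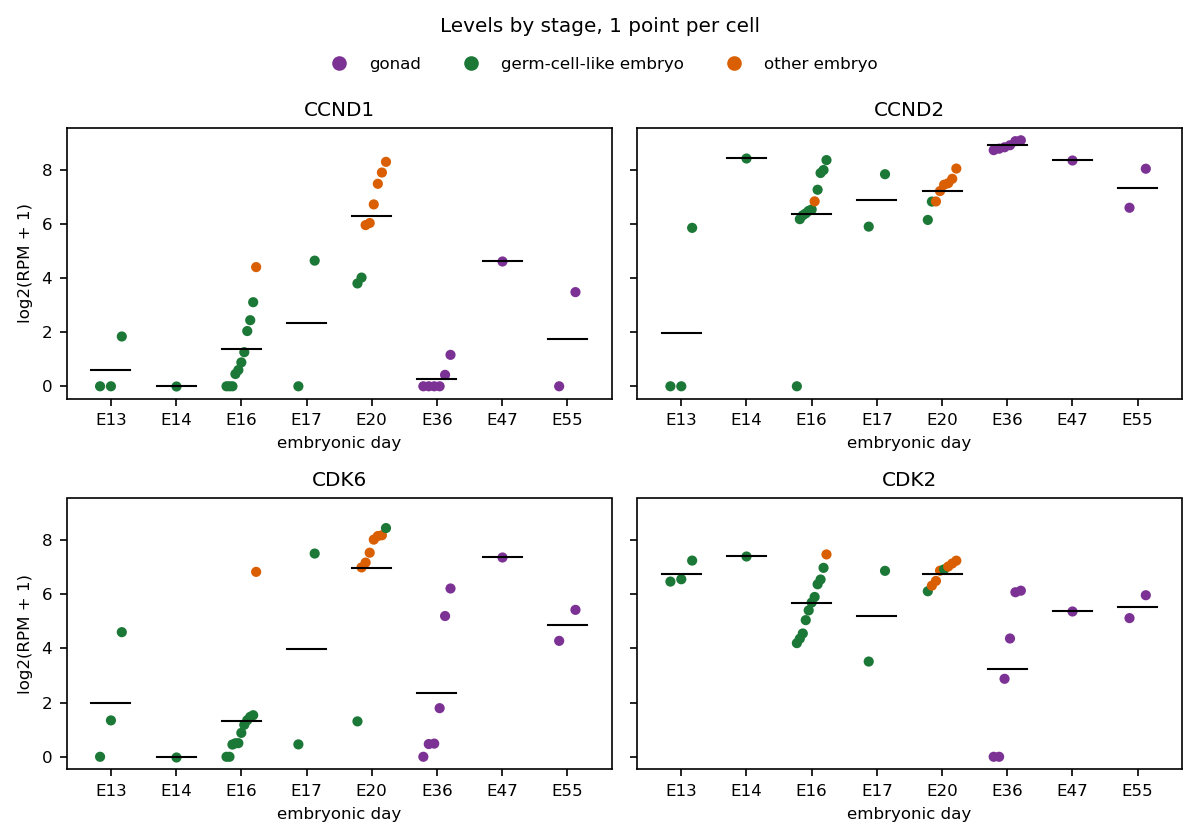
Levels of CCND1, CCND2, CDK6 and CDK2 in log2(RPM + 1) by embryonic day, 1 point per cell coloured by group, with a black line at the mean of all cells of the stage. CCND2 is highest and least spread in the 6 E36 cells, and CCND1 and CDK6 are high at E20 in the other embryo cells.

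Other genes of the same pathway were described from a list of 44, of which 39 were measured. In gonad against germ-cell-like embryo cells, 3 were higher and 9 lower, or 7.69% and 23.1% of the list, beside 10.2% and 17.4% of all measured genes. The list median was -0.24 and that of all measured genes -0.12. The 9 lower became 16 without the 3 gonad cells with WT1 reads and 18 for E36 against E16, settings in which the median of all measured genes was -0.36 and -0.44. The share of all measured genes lower in these settings was not computed, so whether the list departs from it is not known. In germ-cell-like against other embryo cells, 2 were higher and 11 lower, or 5.13% and 28.2% of the list, beside 15.7% and 25% of all measured genes. The share of lower genes is thus near that of all genes. The list median was -0.28 and that of all measured genes -0.14. Without E17 cell 2 and E20 cell 5, 12 were lower, and CDK7, at -0.64, was no longer among them.

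Of 14 genes switched on at the start of S phase, 0 were higher, 6 were lower and 8 did not pass the threshold in gonad against germ-cell-like embryo cells. Over all measured genes, 10.2% were higher and 17.4% were lower. Among the 6 lower genes were the replication licensing genes CDT1 (-2.93) and CDC6 (-2.04) and the helicase subunits MCM3 (-1.51) and MCM7 (-1.18). RRM2 (-2.38), which makes nucleotides for DNA, was another. The mean of CDT1 was 8.25 ± 10.3 RPM in gonad cells, against 40.2 ± 21.3 RPM in germ-cell-like embryo cells. Against other embryo cells, germ-cell-like cells were lower in 3 of the 14 and higher in 0, beside 25% and 15.7% of all measured genes. The 3 lower genes were RRM2 (-2.27), the thymidylate synthase gene TYMS (-1.39) and the phosphatase gene CDC25A (-1.01).

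Of 9 measured genes for E2F factors and their DP partners, 2 were higher, 3 were lower and 4 did not pass the threshold in germ-cell-like against other embryo cells. Over all measured genes, 15.7% were higher and 25% were lower, and whether the 9 genes depart from these shares was not tested. E2F1 (1.77) and E2F2 (2.25), both activators, were higher in germ-cell-like than in other embryo cells. E2F1 averaged 36.8 ± 32.5 RPM in germ-cell-like and 10.2 ± 14.4 RPM in other embryo cells. E2F2 averaged 38.9 ± 64.1 RPM in germ-cell-like, 3.10 ± 6.25 RPM in other embryo and 4.59 ± 8.31 RPM in gonad cells. It thus passed the expression filter through the germ-cell-like cells alone, and the filter favours its calls in both comparisons. The highest germ-cell-like values were those of E13, at 99.5, 258 and 106 RPM. E20 cell 8, E17 cell 2 and the E14 cell had 56.8, 48.6 and 45.5 RPM. The germ-cell-like cells of E16 had 0 to 25.6 RPM, and 6 of the 18 germ-cell-like cells had 0 reads. E2F3 (-2.69), the repressor E2F8 (-2.54) and the partner TFDP1 (-1.04) were lower in germ-cell-like cells. E2F8 passed the filter through the other embryo cells alone, with a mean of 35.7 RPM there, 4.62 RPM in germ-cell-like and 2.85 RPM in gonad cells. In gonad cells E2F1 (-1.18), E2F2 (-2.05) and E2F3 (-1.28) were lower than in germ-cell-like embryo cells, and E2F1 was -0.94 without E17 cell 2 and E20 cell 5.

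Of the 6 other kinase inhibitors in the list, CDKN1A and CDKN1C were measured. The mean of CDKN1C, which codes for p57, was 246 ± 680.5 RPM in gonad cells, against 8.16 ± 12.6 RPM in germ-cell-like embryo cells. That difference of 1.18 was 0.22 without the E47 cell, which had 2058 RPM, and it turned to -0.55 without the 3 cells with WT1 reads. The difference of CDKN1C was -2.15 in germ-cell-like against other embryo cells, with means of 8.16 ± 12.6 RPM and 65.3 ± 99.6 RPM in that order. E16 cell 8 had 281 RPM, and without it the other embryo cells averaged 29.3 ± 31.9 RPM and the difference was -1.51. Without E17 cell 2 and E20 cell 5 the germ-cell-like mean was 5.04 RPM and the difference -2.50. CDKN1A, which codes for p21, had 0 reads in 7 of 9 gonad cells, 259 RPM in E55 cell 2 and 15.4 RPM in the E47 cell, both of which hold WT1 reads. Among embryo cells it reached 48.7 RPM in E13 cell 1, 20.6 RPM in E13 cell 2 and 24.1 RPM in E20 cell 1. The difference of CDKN1A was -0.15 in germ-cell-like against other embryo cells. CDKN2B had 0 reads in all 34 cells. CDKN2A had 0 reads in the 18 germ-cell-like embryo cells together, which allows up to 0.078 RPM at 3 counts over their summed depth. With all cells, the pocket proteins RBL1 and RBL2, relatives of RB1, were not past the threshold in either comparison. They were at -0.53 and -0.97 in gonad against germ-cell-like embryo cells. Without the 3 gonad cells with WT1 reads both were lower, at -1.59 for RBL1 and -2.14 for RBL2.

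Of the remaining genes, CCNE2, the other cyclin E, differed by 1.23 in gonad against germ-cell-like embryo cells and -1.78 in germ-cell-like against other embryo cells. MYC, a growth regulator upstream of G1 cyclins, differed by 2.39 and -2.34 in the same order of comparisons. MYC averaged 14.96 ± 9.23 RPM in gonad cells, 6.37 ± 16.6 RPM in germ-cell-like embryo cells and 27.4 ± 25.1 RPM in other embryo cells. Without E17 cell 2 and E20 cell 5 the germ-cell-like mean of MYC was 3.11 RPM. SKP2 (-1.42), part of the ligase that marks p27 for destruction, and CDK7 (-1.01), which activates the other kinases, were lower in germ-cell-like than in other embryo cells. Calls close to the threshold depend on single cells. Those of TFDP1, CDK7 and CDC25A ended when any 1 of 10, 9 and 9 cells was left out. In the gonad comparison CCNE2 was 0.79 without E36 cell 1, E2F1 was -0.81 without E36 cell 6, and the 9 lower genes became 14 without E36 cell 5.

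**Figure D5:**
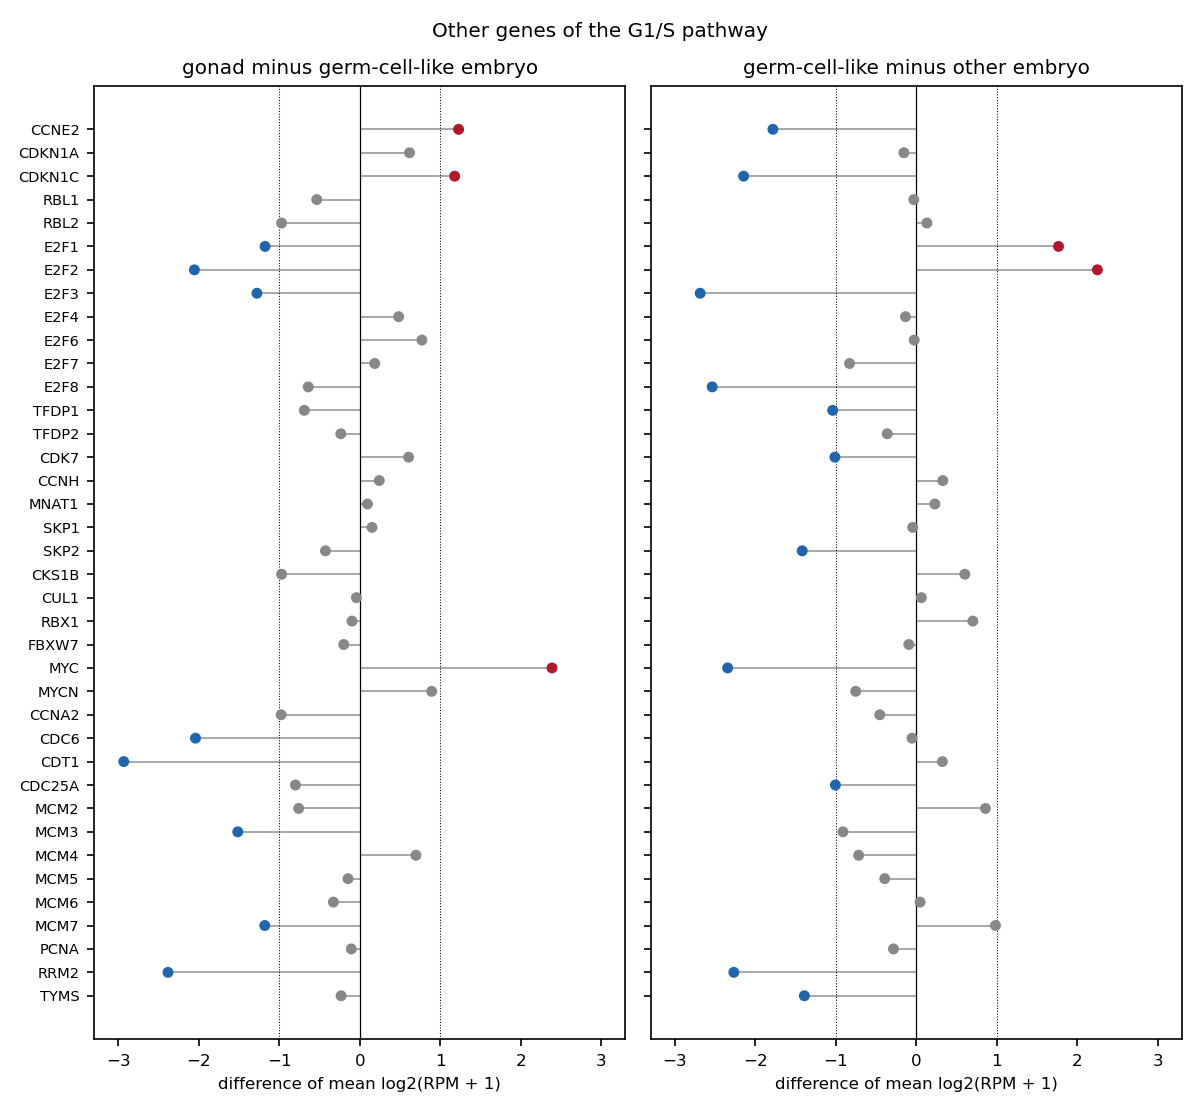
Difference in mean log2(RPM + 1) of 38 measured pathway genes, gonad minus germ-cell-like embryo cells (left) and germ-cell-like minus other embryo cells (right); red and blue points are at least 1 higher or lower, and dotted lines mark that threshold. CDT1 at -2.93 is lowest on the left, and E2F2 at 2.25 highest on the right. E2F2 passed the expression filter through the germ-cell-like cells alone.

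The genes most alike each of the 9 were taken by Pearson correlation of log2(RPM + 1) over the 34 cells, among 7483 genes averaging 15 RPM or more. The cells share groups, codes and depth, so these values are descriptions. CCND1 was most like DUSP6 (0.88), PALLD (0.85) and HOXB3 (0.85). DUSP6 codes for a phosphatase of ERK kinases, and HOXB3 is a patterning gene. CDK6 was most like LOXL1 (0.87), H2AFY (0.85) and VCAN (0.80), of which VCAN is a matrix gene in the mesoderm list. CDK2 was most like TPI1 (0.78), TIMELESS (0.78) and SEPT9 (0.76), and CDK4 was most like ARHGAP11A (0.72), CDC20 (0.70) and INCENP (0.70), of which CDC20 and INCENP act in mitosis. CCND2 was most like PABPC3 (0.71), TAF10 (0.68) and WSB1 (0.64). PABPC3 is a near copy of PABPC1, so its reads may be shared. CCNE1 was most like GLUL (0.66), RRM2 (0.65) and BAZ1A (0.64), and CDKN1B was most like SETD8 (0.67), TRAF4 (0.66) and PPP2R1B (0.63). RB1 was most like SDCBP (0.67), GPN3 (0.66) and EDC3 (0.62), and CCND3 was most like KIAA0232 (0.59), FXC1 (0.57) and CUL4B (0.55).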

How the data were processed

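Per the labels' protocols, cDNA of single cells was amplified and sequenced as SOLiD libraries, and cutadapt 1.3, TopHat 1.4.1 and Cufflinks 2.2.0 are named, with no role, in the submitters' processing notes. No source used here gives the genome build, annotation or strand setting. The authors deposited 1 table of log2 values, which back-transform as log2(RPM + 1): columns then sum to 992085 to 995711. Reads were recovered from the step of 1 read in each cell, and 99.8% to 100.0% of low values were whole within 0.1 read. PCR reads without molecular identifiers are not independent molecules, so Poisson intervals and floors cover counting error only.

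Means and SDs over cells, differences of mean log2(RPM + 1) and folds of mean RPM were computed in Python 3.11.15 with numpy 2.4.6, pandas 2.3.3 and scipy 1.17.1, and checked on simulated data. With 1 sample a group, no p-value is given. Named genes are the 9 members, list genes that differ by at least 1 or are inhibitors or pocket proteins, and the 3 most alike genes of each member. Of the list, 1 measured gene enters the counts and is not reported here by name. Members, lists and markers were chosen with earlier results of these data known. Leaving out E17 cell 2 and E20 cell 5 was added after seeing the data. Replicate numbers name cells in accession order. Alternatives changed the pseudocount, summary, scaling, NANOG threshold, expression filter, stages, label codes and single cells.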

Additional observations from a re-analysis of the deposited data

Results flagged for a closer look

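In 36 screens of the 9 genes over groups of 4 to 10 cells, 4 cells lay far from the rest of their group. The nominal rate of about 1 in 20 cannot be used as a chance rate here. Groups share cells, the E20 group mixes both embryo classes, and many values lie at or near 0 reads. The 4 flags are therefore descriptions. CCNE1 was at 0 RPM in E20 cell 5, a germ-cell-like cell with mesoderm transcripts, while the other 7 E20 cells had 21.1 RPM or more. CDK6 was at 1.48 RPM in E20 cell 8, the other germ-cell-like cell of that stage, and at 126 RPM or more in the rest. CCND1 was at 1.24 RPM in E36 cell 6, against 0.34 RPM or less in the other 5 cells of E36. CCND2 was at 95.6 RPM in E55 cell 2, the lowest of the 9 gonad cells, and the next was E55 cell 1 at 261 RPM. The distances were taken on log2(RPM + 1), so the CCND1 flag rests on single reads.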

How the results depend on the processing

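Direction held under every alternative run for CCND1, CCND2, CCNE1 and CDK2 in germ-cell-like against other embryo cells (36 of 36 each), and for CCND2 and CDK2 in gonad against germ-cell-like embryo cells (39 of 39 each). Most of these alternatives left out 1 cell each. The rule on SOX17 and TFAP2C picked the same cells as NANOG, so its values could not differ. The counts are therefore not numbers of independent checks. Differences count as moved where they shift by more than 1 SD over cells, as reversed where a difference past the threshold changes sign, and list counts as moved past 1.5 times. Of values with 1 cell left out, 674 stayed and 2 moved. Of other values, 285 stayed, 22 moved and 4 reversed. Beside these 4, 14 values of the 9 genes whose difference lay between -1 and 1 changed sign.

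In germ-cell-like against other embryo cells, CCND1 was -3.15 with a pseudocount of 10, -3.15 among E20 cells, -3.05 within code MS08 and -3.08 within MS09. CDK6 was -2.63 as a log2 ratio of means, -2.80 among E20 cells and reversed to 0.77 within MS08, where E20 cell 5 is the 1 germ-cell-like cell. CDKN1B reversed to -0.11 among E20 cells and to -1.22 within MS09. Within MS08, CCNE1 was -5.95 and RB1 2.43. The pathway genes lower were 7 with a pseudocount of 10 and 7 by ratio of means. Those higher were 5 by medians, 1 at a NANOG threshold of 800 RPM, 4 among E20 cells, 9 within MS08 and 4 within MS09, and 2 to 4 with 1 cell left out (4 without E20 cell 3).

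In gonad against germ-cell-like embryo cells within MS11, CDK6 reversed to -0.51, RB1 was 4.17 and 10 pathway genes were higher. That count was 1 with a pseudocount of 10, 1 by medians and 1 with a filter of 15 RPM. Those lower were 16 without the 3 cells with WT1 reads, 18 for E36 against E16, and 9 to 14 with 1 cell left out. The median of all measured genes moved to -0.36 and -0.44 in those first 2 settings and to -0.72 within MS09. The cause of these shifts was not tested. Shares of all measured genes higher or lower were not computed for any alternative, so the list counts under them are descriptions. MS11 holds no other embryo cell, so germ-cell-like and other embryo cells could not be compared there. No paired analysis was possible because replicate numbers only name cells in accession order and no test was run.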

Other observations

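Some correlations across the 18 germ-cell-like embryo cells rest on E17 cell 2 and E20 cell 5 and others do not. CCND1 and CDK6 had a Pearson r of 0.62 over the 18 cells and 0.056 over the 16 cells without E17 cell 2 and E20 cell 5. CDK6 and PDGFRA, a single marker of the mesoderm list, had an r of 0.74 over the 18 cells and -0.042 over the 16. CDK4 and the proliferation marker MKI67 had an r of 0.65 over the 18 cells and 0.67 over the 16, with Spearman's rho of 0.51 and 0.56. In the 9 gonad cells that pair had an r of 0.44, but in the 7 other embryo cells it had an r of -0.64 and a rho of -0.82. CCNE1 and CDK2, which act as a complex, had an r of 0.46 and a rho of 0.59 over the 18 cells, and CDK2 and CDK4 had an r of 0.50 over the 18 cells and 0.49 over the 16. CCND2 and CDK6 had an r of -0.19 over the 18 cells and -0.61 over the 16. CCND3 and CDK2 had an r of -0.41 over the 18 cells and -0.52 over the 16. The pairs named are a selection from all pairs of the 9 genes, MKI67 and PDGFRA. They are descriptions over cells that share depth and label codes.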
